A study of Mus musculus with 9 samples.

Results

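The testis-specific serine kinases (TSSK) were followed through the testis transcriptome of mice with and without protamine 2 (Prm2), a small nuclear protein that packs sperm DNA. All 5 family members asked for, Tssk1, Tssk2, Tssk3, Tssk4 and Tssk6, were found by gene symbol among the 38685 genes and loci of the table, each with 1 entry. RNA came from whole testis of male C57BL/6 mice without the tunica albuginea, and QuantSeq libraries read the 3′ ends of polyadenylated transcripts. The 3 genotypes were wildtype (Prm2+/+), heterozygous (Prm2+/−) and Prm2-deficient (Prm2−/−), with 3 biological replicates each, and the line was generated by CRISPR/Cas9 editing in oocytes. The age of the males, and which edited allele the libraries carry, are not given in the sources used here.

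TSSK proteins belong to the calcium/calmodulin-dependent kinase group and are made almost only in the haploid male germ line, after meiosis. Their genes are switched on in spermatids, the cells that build the acrosome and flagellum and exchange histones for protamines, and several knockouts of the family in mice leave males sterile or subfertile. TSSK proteins work in complexes, among them with the scaffold and substrate TSKS and, for TSSK6, with the co-chaperone TSACC and HSP90.

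Of the 5 Tssk genes, 0 passed the thresholds for a difference between genotypes. Tssk1, Tssk2, Tssk3 and Tssk6 were among the abundant testis transcripts in each genotype, and their log2 fold changes (LFC) between Prm2−/− and Prm2+/+ were 0.06, -0.14, -0.10 and 0.01. Tssk4 was read by few counts and had the largest LFC of the family, 1.62 in Prm2−/−, without passing the adjusted test. Calls were made with limma, fitted to all 9 libraries on log2 of the normalized count plus 1, and needed an LFC beyond 0.5 in either direction together with p under 0.05 after Benjamini-Hochberg adjustment.

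The counts behind the normalized values summed to between 3629929 and 4490411 per library. The transcript of the edited gene itself does not check the labels: the mean normalized count of Prm2 was 33046 ± 5732 in wildtype, 31891 ± 2287 in heterozygous and 37810 ± 4344 in deficient testes (SD, n = 3 each). Markers of elongating spermatids summed to between 226647 and 250148 normalized counts in the 9 libraries, and those of epididymal epithelium to between 17.2 and 37.5, with Adam28, Lcn5 and Lcn8 at 0 throughout. Replicate 3 of Prm2+/+ stood apart, with 12354 normalized counts summed over 8 spermatocyte markers against 37603 to 46606 in the other 8 libraries. The lower sum was not shared by all markers. For the 7 with a mean of at least 100, the ratio to the mean of the other 8 libraries ran from 0.0815 to 1.47. The median ratio was 0.916. Single low markers were not particular to this library. The lowest ratio in the same list was 0.0530 in replicate 2 of Prm2+/+, and 0.0485 and 0.0300 in replicates 1 and 2 of Prm2+/−. Where LFCs of the Tssk, partner and other kinase genes named rest on this library, they are also given without it. In bulk tissue, fewer cells of a type and less RNA per cell cannot be told apart.

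Tssk1 and Tssk2 are neighbours on chromosome 16, in the same orientation and separated by 714 bp. Tssk1 (ENSMUSG00000041566) lies at chr16:17894223-17897922 and Tssk2 (ENSMUSG00000045521) at chr16:17898637-17900024 of GRCm38, both on the plus strand and both with 1 exon in GENCODE M21. Prm2 lies on the same chromosome, 7098089 bp from Tssk1. The coding sequence has 365 codons in Tssk1 and 358 in Tssk2, and 77.3% of the aligned columns were identical between them. Every other pair of the family was at 47.8% to 56.4%. The longest identical coding stretch of the pair is shown because it is longer than the 50-base reads, so that a read from within it would match both genes. It covers codons 124 to 161 of both genes and is printed in the sense direction.
Tssk1 and Tssk2 (chr16:17894723-17894835 and chr16:17899105-17899217, GRCm38, plus strand): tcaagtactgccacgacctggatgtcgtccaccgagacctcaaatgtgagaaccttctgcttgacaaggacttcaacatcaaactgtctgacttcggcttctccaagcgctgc
The pair shared 125 words of 50 bases, and the other pairs shared 0. The end of the stretch lies 3087 bases before the end of the annotated Tssk1 transcript and 807 bases before that of Tssk2. How reads matching both genes were assigned is not given in the sources used here.

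The promoters of the pair are shown because the genes lie side by side and differ in level. The windows run from 250 bases before to 50 bases after the RefSeq start (GRCm38.p6), on the strand of the gene. Capitals mark the letters TGACTTCA, on either strand, and GACAGTGCTGA.
Tssk1 (chr16:17893953-17894252, plus strand): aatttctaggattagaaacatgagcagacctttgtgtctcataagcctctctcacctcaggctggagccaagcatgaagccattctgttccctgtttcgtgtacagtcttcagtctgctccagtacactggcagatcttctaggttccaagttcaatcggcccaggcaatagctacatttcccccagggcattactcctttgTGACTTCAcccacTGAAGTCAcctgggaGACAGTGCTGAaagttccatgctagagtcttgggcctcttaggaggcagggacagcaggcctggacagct
Tssk2 (chr16:17898387-17898686, plus strand): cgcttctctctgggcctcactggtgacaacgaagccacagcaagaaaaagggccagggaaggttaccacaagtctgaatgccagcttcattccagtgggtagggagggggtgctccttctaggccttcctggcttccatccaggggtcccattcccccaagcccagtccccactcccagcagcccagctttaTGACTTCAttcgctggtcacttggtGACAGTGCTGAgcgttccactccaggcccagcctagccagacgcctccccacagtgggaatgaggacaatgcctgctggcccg
The cAMP response element TGACGTCA, the site of the spermatid factor CREM, was in 0 of the 5 Tssk promoters and in 1.79% of 32851 RefSeq promoters, both strands searched. Its shorter form TGACG, which lies within it, was in the promoter of Tssk6 alone among the family and in 20.8% of all promoters. The letters TGACTTCA, looked up after the sequences had been seen, occurred 48 bases before the start of Tssk1 and 58 bases before that of Tssk2. Tssk1 held them again on the opposite strand, 35 bases before its start, and 1.52% of all promoters held them. GACAGTGCTGA, the longest run that both promoters share, began 20 bases before the start of Tssk1 and 33 before that of Tssk2. It was picked from these sequences, so that its presence in both was fixed in advance. Of the 32851 promoters 6 held it, those of Tssk1 and Tssk2 among them. These matches describe the letters and not binding.

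Tssk1 had 1053, 1153 and 1468 normalized counts in the Prm2+/+ libraries. The Prm2+/− libraries had 1053, 1101 and 1125, and the Prm2−/− libraries 1279.6, 1281 and 1239. The Prm2−/− libraries were close to each other and lay inside the range of the wildtype, while they did not overlap with the heterozygous ones. The means were 1225 ± 217, 1093 ± 36.6 and 1266 ± 24.0 (SD, n = 3 each). Between Prm2−/− and Prm2+/+, the LFC amounted to 0.06 (standard error 0.12, 95% interval -0.21 to 0.34, adjusted p = 0.901 in limma) and turned to -0.04 without replicate 1 of Prm2+/+. Without replicate 3 of Prm2+/+ it was 0.20, with an unadjusted p of 0.0162 and an adjusted p of 0.494 in limma. Between Prm2−/− and Prm2+/− it was 0.21 (95% interval -0.06 to 0.49, adjusted p = 0.963 in limma). DESeq2 on these 6 libraries alone gave an LFC of 0.22 with an adjusted p of 0.0110, which is still within the LFC limit of 0.5, and limma without replicate 3 of Prm2+/+ gave an unadjusted p of 0.00728 and an adjusted p of 0.469. Between Prm2+/− and Prm2+/+ it was -0.15 (adjusted p = 0.842 in limma), and -0.01 without replicate 3 of Prm2+/+.

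Tssk2, the closest relative of Tssk1, had 2624, 2523 and 3263 normalized counts in Prm2+/+. There were 2562, 2701 and 2799 in Prm2+/− and 2455, 2669 and 2454 in Prm2−/−. The groups overlapped in all comparisons, and replicate 3 of Prm2+/+ was the highest library. The means were 2803 ± 401, 2687 ± 119 and 2526 ± 124 (SD, n = 3 each). Tssk2 in Prm2−/− against Prm2+/+ gave an LFC of -0.14 (standard error 0.10, 95% interval -0.38 to 0.09, adjusted p = 0.754 in limma), and it was -0.03 without replicate 3 of Prm2+/+. For the heterozygous libraries against Prm2+/+ it was -0.05 (adjusted p = 0.920 in limma), which turned to 0.06 without that library. Prm2−/− against Prm2+/− gave -0.09 (adjusted p = 0.997 in limma).

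Tssk3, a small family member, has 268 codons in 2 exons and lies at chr4:129489014-129491022 on the minus strand (ENSMUSG00000000411). Its wildtype libraries held 1524, 1281 and 2001 normalized counts, its heterozygous ones 1493, 1291 and 1400, and its deficient ones 1426, 1379 and 1621. All groups overlapped, and replicate 3 of Prm2+/+ was again the highest library. The means were 1602 ± 366, 1394 ± 101 and 1475 ± 128 (SD, n = 3 each). Comparing Prm2−/− with Prm2+/+ gave an LFC of -0.10 (standard error 0.16, 95% interval -0.46 to 0.27, adjusted p = 0.881 in limma) and became 0.08 without replicate 3 of Prm2+/+. Heterozygous against wildtype libraries gave -0.18 (adjusted p = 0.842 in limma), which rests on the same library and was -0.0053 without it. Prm2−/− against Prm2+/− gave 0.08 (adjusted p = 0.9997 in limma).

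Tssk6 acts late in spermiogenesis, and mice without it are sterile with poorly condensed sperm heads. The gene has 1 exon with 273 codons and lies at chr8:69902184-69903518 on the plus strand (ENSMUSG00000047654). Its libraries had 2587.5, 4512 and 3554 normalized counts in Prm2+/+. The Prm2+/− libraries had 2603, 2586 and 3314, and the Prm2−/− libraries 4271, 4809 and 2069. The highest and the lowest of the 9 libraries were thus both Prm2−/−, and all groups overlapped. The means were 3551 ± 962, 2834 ± 415 and 3716 ± 1452 (SD, n = 3 each). The LFC of Prm2−/− against Prm2+/+ was 0.01, with a 95% interval from -0.75 to 0.77 (standard error 0.33, adjusted p = 0.996 in limma). The interval includes the LFC limit in both directions, so that a difference of that size was not excluded. The LFC became -0.20 without replicate 1 of Prm2+/+, -0.13 without replicate 1 of Prm2−/−, -0.22 without replicate 2 of Prm2−/− and 0.39 without replicate 3 of Prm2−/−. Prm2+/− against Prm2+/+ gave -0.30 (adjusted p = 0.850) and Prm2−/− against Prm2+/− gave 0.31 (adjusted p = 0.997, both in limma).

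Tssk4 encodes a kinase of the sperm flagellum that phosphorylates ODF2, a protein of the outer dense fibres. It has 7 annotated transcripts and lies at chr14:55650184-55652539 on the plus strand (ENSMUSG00000007591). The Prm2+/+ libraries held 5.70, 8.57 and 2.21 normalized counts, from 6, 8 and 2 recovered counts. The Prm2+/− libraries held 11.9, 9.13 and 3.53, from 12, 10 and 4 counts, and the Prm2−/− libraries 17.2, 27.4 and 10.6, from 19, 27 and 10 counts. All Prm2−/− libraries lay above all Prm2+/+ libraries, and the heterozygous libraries overlapped with both. Counting error alone is wide at this depth: the exact 95% Poisson interval was 0.242 to 7.22 for the library with 2 counts and 17.8 to 39.3 for the one with 27. The means were 5.49 ± 3.19, 8.18 ± 4.25 and 18.4 ± 8.48 (SD, n = 3 each).

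Tssk4 was higher in Prm2−/− than in Prm2+/+ by 1.62 on the LFC scale (standard error 0.59, 95% interval 0.26 to 2.98), with an unadjusted p of 0.0252 and an adjusted p of 0.617 in limma. Between Prm2−/− and Prm2+/− it was 1.11 (adjusted p = 0.963) and between Prm2+/− and Prm2+/+ 0.51 (adjusted p = 0.852, both in limma). The first LFC was 1.18 without replicate 3 of Prm2+/+ and 1.297 without replicate 2 of Prm2−/−, with unadjusted limma p-values of 0.0770 and 0.0913. The LFC of Prm2+/− against Prm2+/+ was 0.07 without replicate 3 of Prm2+/+. Without replicate 1 of Prm2−/− the first LFC was 1.62, with an unadjusted limma p of 0.0572. Tssk4 entered the test through its Prm2−/− libraries: the filter asked for 3 libraries at or above the share of 10 counts in a library of median size, and 3 Prm2−/−, 1 Prm2+/− and 0 Prm2+/+ libraries passed, so that a difference in this direction was favoured by the filter.

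**Figure D1:**
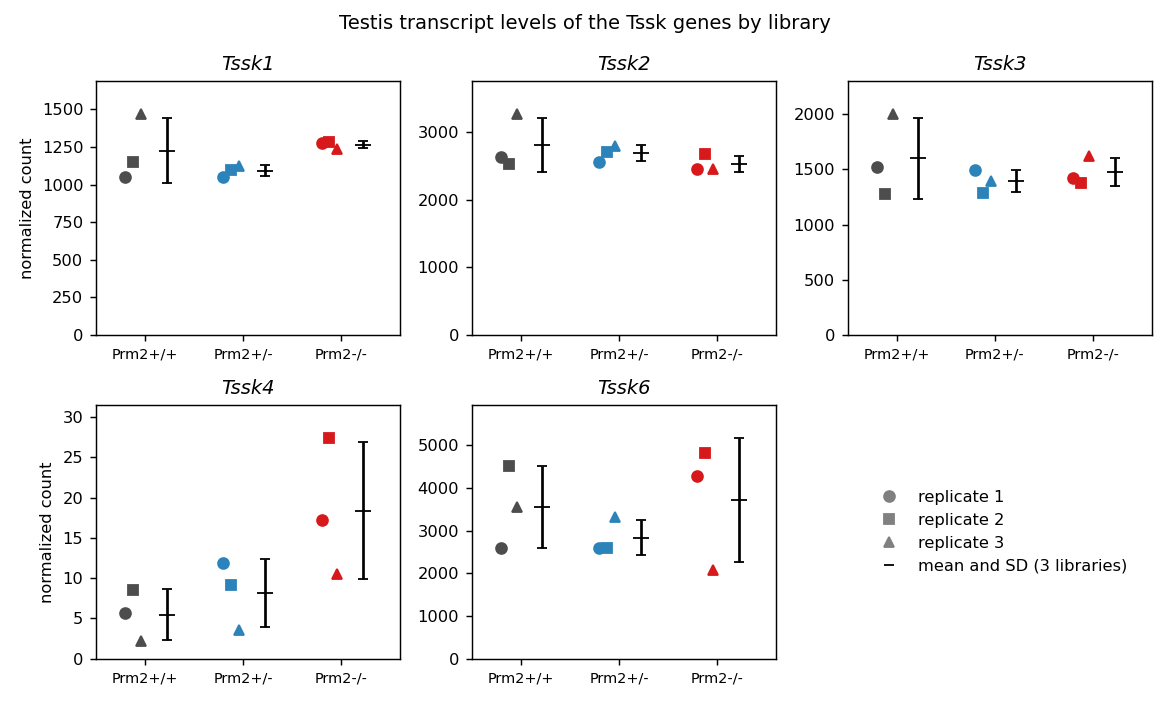
Normalized counts of the 5 Tssk genes in each library (linear axes from 0, a different scale per gene) by Prm2 genotype, with circles, squares and triangles for replicates 1, 2 and 3 and the mean with SD beside them. Replicate 3 of Prm2+/+ is the highest library for Tssk1, Tssk2 and Tssk3, Tssk4 runs from 2.21 to 27.4, and the Prm2−/− libraries of Tssk6 span 2069 to 4809.

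The family was also read against all tested genes. In Prm2−/− against Prm2+/+, 0 of 5 Tssk genes were called in limma, where 0.181% of the 14893 tested genes were called. Tssk4, which entered the test through its Prm2−/− libraries, was the 1 member with an unadjusted p under 0.05, against 7.33% of all tested genes. It was also the 1 member whose libraries did not overlap, against 14%. The median LFC of the members was 0.01, beside 0.02 over all tested genes. Without replicate 3 of Prm2+/+ these medians were 0.08 and -0.0078, and the 1 member with an unadjusted limma p under 0.05 was Tssk1 in place of Tssk4. Between Prm2+/− and Prm2+/+, 0 of 5 were called (background 0.0806%), 0 had an unadjusted limma p under 0.05 (4.24%), and 0 had libraries that did not overlap (9.44%). The median LFC was -0.15, beside 0.01 over all tested genes, and rests on replicate 3 of Prm2+/+: without it, the medians were -0.0053 and -0.0019. Between Prm2−/− and Prm2+/−, 0 of 5 were called (0.175%), 0 had an unadjusted limma p under 0.05 (5.44%), and Tssk1 was the 1 member without overlap (14.7%). The median LFC was 0.21, beside -0.01 over all tested genes. These 3 comparisons share libraries and are not independent of each other. edgeR and DESeq2 also called 0 members in each comparison. With an unadjusted p under 0.05 they found Tssk4 in Prm2−/− against Prm2+/+, and DESeq2 on the 6 libraries compared found Tssk1 in Prm2−/− against Prm2+/−. Both tools used the same filter and libraries as limma, so that for Tssk4 they are no independent support.

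The members differed in level, with Tssk4 far below the others. Per kb of annotated exon, the mean of the 9 libraries was 2522 normalized counts for Tssk6, 1925 for Tssk2, 1165 for Tssk3, 323 for Tssk1 and 6.22 for Tssk4. QuantSeq yields about 1 read per transcript end, so that this scale favours short transcripts. The exon length is 3700 bp in Tssk1 and 1335 bp in Tssk6. Without division by length, Tssk6 (3367) and Tssk2 (2672) were still the highest, followed by Tssk3 (1491), Tssk1 (1195) and Tssk4 (10.7). On this scale the libraries of Tssk6 overlapped with those of Tssk2 and those of Tssk3 with those of Tssk1, while every Tssk2 library was above every Tssk3 library. Tssk6 ranked at position 103 and Tssk2 at position 160 by mean level among the 14893 tested genes, and Tssk4 at position 13922.

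Tssk6 varied within genotypes more than the other abundant members. Its standard deviation within genotypes was 0.46 on the log2 scale. Of the 331 tested genes within 2-fold of its mean level, 89.7% had a lower one, and their median was 0.15. The standard deviation was 0.15 for Tssk1, 0.13 for Tssk2 and 0.21 for Tssk3, higher than in 44.0%, 38.6% and 72.0% of the genes of like level. For Tssk4 it was 0.75, higher than in 67.7%.

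**Figure D2:**
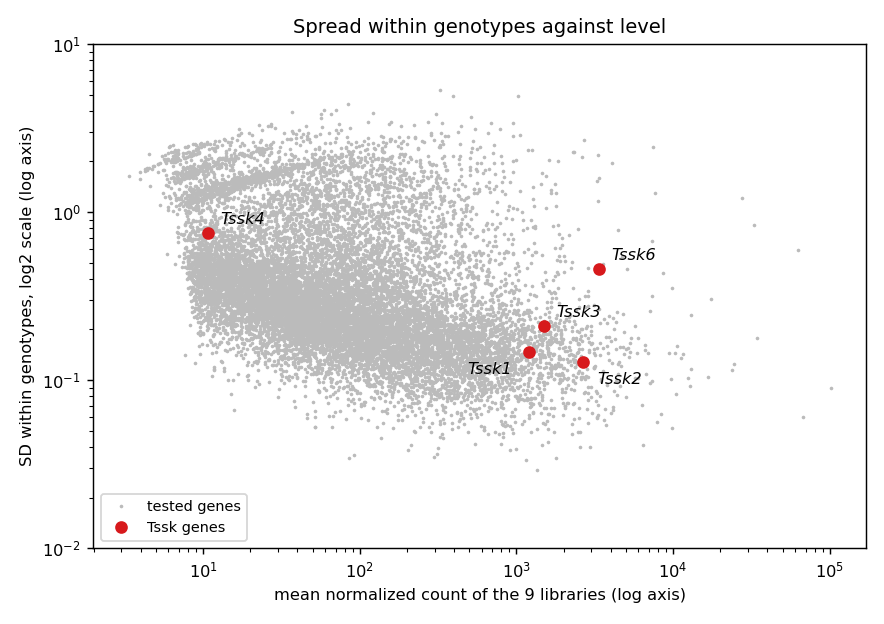
Standard deviation within genotypes on the log2 scale against the mean normalized count, both on log axes, for all 14893 tested genes (grey) and the 5 Tssk genes (red). Tssk6, at 0.46, lies above most genes of its level, while Tssk1, Tssk2 and Tssk3 lie between 0.13 and 0.21.

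The other 3 abundant members had their highest value in the same library. Replicate 3 of Prm2+/+ was the highest library for Tssk1, Tssk2 and Tssk3, at 1.27, 1.26 and 1.40 times the mean of the other 8, and Tssk6 was at 1.06 times. Among the 5890 tested genes with a mean of at least 100, this library was the highest for 32.5%, with a median of 1.03 times. The median was 1.25 times for 10 markers of elongating spermatids, 1.162 for 8 of round spermatids and 0.916 for 7 of spermatocytes. Single markers went both ways, from 0.123 to 1.78 times, 0.305 to 1.59 times and 0.0815 to 1.47 times in these lists. The summed elongating markers, at 249741 normalized counts, lay below the 250148 of replicate 1 of Prm2+/+. The median was also 1.23 times for 3 blood markers, 1.11 for 4 of Sertoli cells and 0.970 for 5 of Leydig cells. It was 1.25 times for 6 of the AMPK-related kinases. The 1 marker with a mean of at least 100 stood at 0.588 times for spermatogonia, 0.827 for macrophages and 1.08 for peritubular cells. The part of the cell composition of this sample in the Tssk levels was not tested. Across the 9 libraries, Pearson's r on the log2 scale was 0.49 between Tssk1 and Tssk2, 0.61 between Tssk1 and Tssk3 and 0.61 between Tssk2 and Tssk3 (Spearman's rho 0.0833, 0.15 and 0). Without replicate 3 of Prm2+/+ the values of r were -0.39, 0.01 and -0.39 over 8 libraries. The relation between these genes thus rests on 1 library.

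**Figure D3:**
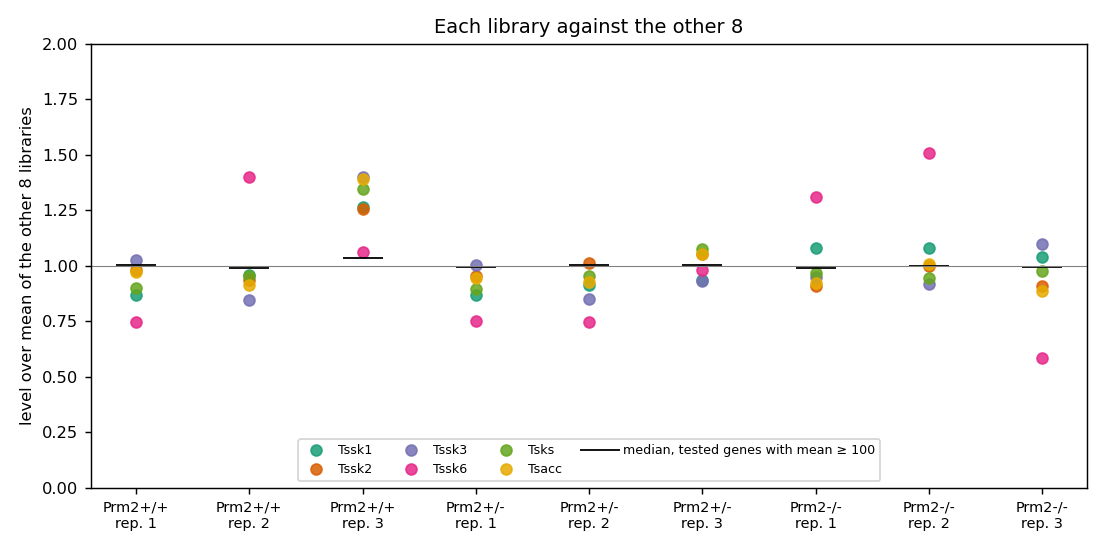
Level of Tssk1, Tssk2, Tssk3, Tssk6, Tsks and Tsacc in each library, divided by the mean of the other 8 libraries (linear axis from 0), with the median over the 5890 tested genes with a mean of at least 100 as a black bar. In replicate 3 of Prm2+/+, the points lie between 1.06 and 1.40 and the bar at 1.03, and the Tssk6 points scatter widely in the other libraries.

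Some Tssk genes lie on or beside other genes, and whether strand was used in counting is not stated. Tssk6 overlaps on the opposite strand with Ndufa13, which encodes a subunit of mitochondrial complex I, and 375 bp (28.1%) of its exon is also exon of Ndufa13. Ndufa13 ranged from 681.6 to 909 normalized counts in wildtype, from 659 to 810.3 in heterozygous and from 713 to 727 in deficient libraries, a far narrower range than that of Tssk6. Yjefn3, which overlaps with Tssk6 by 529 bp, was listed at 0 in the 3 Prm2+/+ libraries and at 84.5 to 110 in the other 6. The exon sequence shared by Yjefn3 and Tssk6 is 15 bp. Tssk6 ran from 2069 to 4809 normalized counts, so that a step of the size seen in Yjefn3 could not be told in it.

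Tssk1 lies wholly within the span of Dgcr2 on the opposite strand, with 63 bp (1.70%) of its exon shared. Dgcr2 had 248, 54.7 and 358 normalized counts in wildtype, 252, 47.5 and 59.2 in heterozygous and 85.1, 74.1 and 76.0 in deficient libraries. It thus varied several-fold within Prm2+/+ and within Prm2+/−, where Tssk1 did not. Tssk3 starts 167 bp from Fam229a, which runs in the opposite direction. In replicates 1, 2 and 3, Fam229a had 2229, 359 and 2502 normalized counts in wildtype, 1984, 1911 and 2687 in heterozygous and 238, 1598 and 1536 in deficient testes. The 2 libraries with low Fam229a, replicate 2 of Prm2+/+ and replicate 1 of Prm2−/−, had 1281 and 1426 normalized counts of Tssk3, within the range of the other libraries or next to it.

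**Figure D4:**
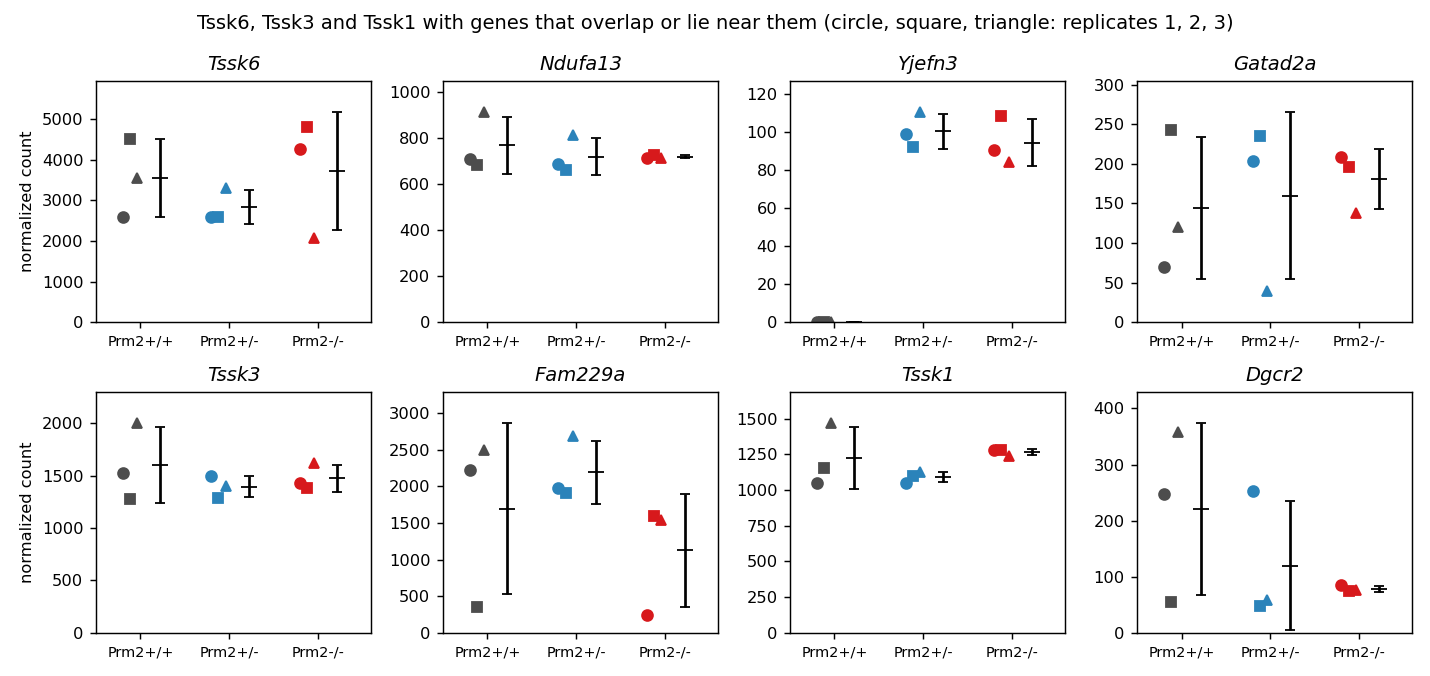
Normalized counts of Tssk6, Tssk3 and Tssk1 and of genes that overlap or lie near them (linear axes from 0, a different scale per gene), by genotype and replicate, with mean and SD. Yjefn3 is at 0 in Prm2+/+ and at 84.5 or above elsewhere, and Fam229a and Dgcr2 vary several-fold within Prm2+/+ and within 1 further genotype each, while Tssk1 and Tssk3 do not.

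A list of genes of TSSK partners, substrates and relatives, which also holds the chromatoid body markers Ddx4 and Piwil1, was read next as the partner list. Of its 13 genes in the table, 12 were tested and 0 were called in limma in any comparison. Tssk5, a further family member in the mouse, was at 0 in all 9 libraries. In Prm2−/− against Prm2+/+, 6 of the 12 had an LFC above 0 and the median was 0.03, beside 0.02 over all tested genes, and 2 (Odf2 and Pdpk1) had an unadjusted p under 0.05, against 7.33% of all tested genes. The 1 gene under this limit was Pdpk1 in Prm2+/− against Prm2+/+ and Odf2 in Prm2−/− against Prm2+/−. Tsks, the scaffold and substrate of several TSSK proteins, had 927, 977 and 1324 normalized counts in wildtype, 923, 978 and 1089 in heterozygous and 992, 970.1 and 998 in deficient libraries. Its LFC in Prm2−/− against Prm2+/+ was -0.11 (adjusted p = 0.837 in limma) and became 0.05 without replicate 3 of Prm2+/+, the highest library for this gene too. Tsacc, the co-chaperone that activates TSSK6, had 1626, 1542 and 2228 in wildtype, 1589.7, 1560.2 and 1751 in heterozygous and 1555, 1679 and 1496 in deficient libraries. Its LFC was -0.17 (adjusted p = 0.760 in limma), which rests on replicate 3 of Prm2+/+ and was -0.0076 without it. The chaperone genes Hsp90aa1 and Hsp90ab1 had LFCs of -0.02 and 0.21 (adjusted p = 0.969 and 0.819 in limma), and of 0.09 and 0.38 without that library.

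Odf2, whose product in the outer dense fibres of the flagellum is a substrate of TSSK4, had 3198, 3040 and 3862 normalized counts in Prm2+/+. The Prm2+/− libraries had 3684, 3193 and 2767, and the Prm2−/− libraries 4869, 4816 and 4660. All Prm2−/− libraries lay above the other 6. Of all tested genes, 14% had libraries that did not overlap, in either direction, in Prm2−/− against Prm2+/+, and 14.7% against Prm2+/−. The share with all Prm2−/− libraries above the other 6 was not counted. Odf2 gave an LFC of 0.51 against Prm2+/+ (standard error 0.12, unadjusted p = 0.00300, adjusted p = 0.392 in limma) and 0.58 against Prm2+/− (adjusted p = 0.417 in limma). DESeq2 called it against Prm2+/+, with an adjusted p of 0.0481 on 9 libraries and 0.0138 on the 6 compared, and edgeR did not (adjusted p = 0.391). Over all tested genes in this comparison, DESeq2 on 9 libraries called 101 higher and 30 lower, and edgeR 20 and 4.

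Pdpk1, which encodes PDK1, a kinase able to activate TSSK3 in vitro, had 96.9, 147 and 68.5 normalized counts in wildtype, 140.4 to 166 in heterozygous and 181, 199 and 201 in deficient libraries. The Prm2−/− libraries lay above the other 6. In either direction and in each comparison on its own, 14% of all tested genes did not overlap against Prm2+/+ and 14.7% against Prm2+/−. Against Prm2+/+, the LFC of Pdpk1 reached 0.96 (adjusted p = 0.444 in limma, standard error 0.25). It was called with an LFC of 1.24 and an adjusted limma p of 0.0492 without replicate 2 of Prm2+/+, and was 0.69 without replicate 3. Spag16, a protein of the sperm axoneme and a substrate of TSSK2, had 547, 527 and 57.5 normalized counts in Prm2+/+ and 513 to 680.4 in the other 6 libraries, so that its LFC of 1.13 (adjusted p = 0.750 in limma) rests on replicate 3 of Prm2+/+ and was 0.07 without it. H2afx, the histone whose phosphorylated form depends on TSSK6 in spermatids, had an LFC of 0.14 and Creb1, a reported substrate of TSSK4, of -0.06 (adjusted p = 0.751 and 0.950 in limma). Ppp1cc, the phosphatase gene whose testis form binds TSKS, had -0.05 (adjusted p = 0.881 in limma). Ddx4 and Piwil1, markers of the chromatoid body where TSSK1 and TSSK2 gather, had -0.12 and 0.08 (adjusted p = 0.781 and 0.756 in limma). Without replicate 3 of Prm2+/+ the LFC was -0.15 for Creb1, 0.02 for Ppp1cc and -0.24 for Ddx4, the last with an unadjusted p of 0.00787 and an adjusted p of 0.424 in limma.

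**Figure D5:**
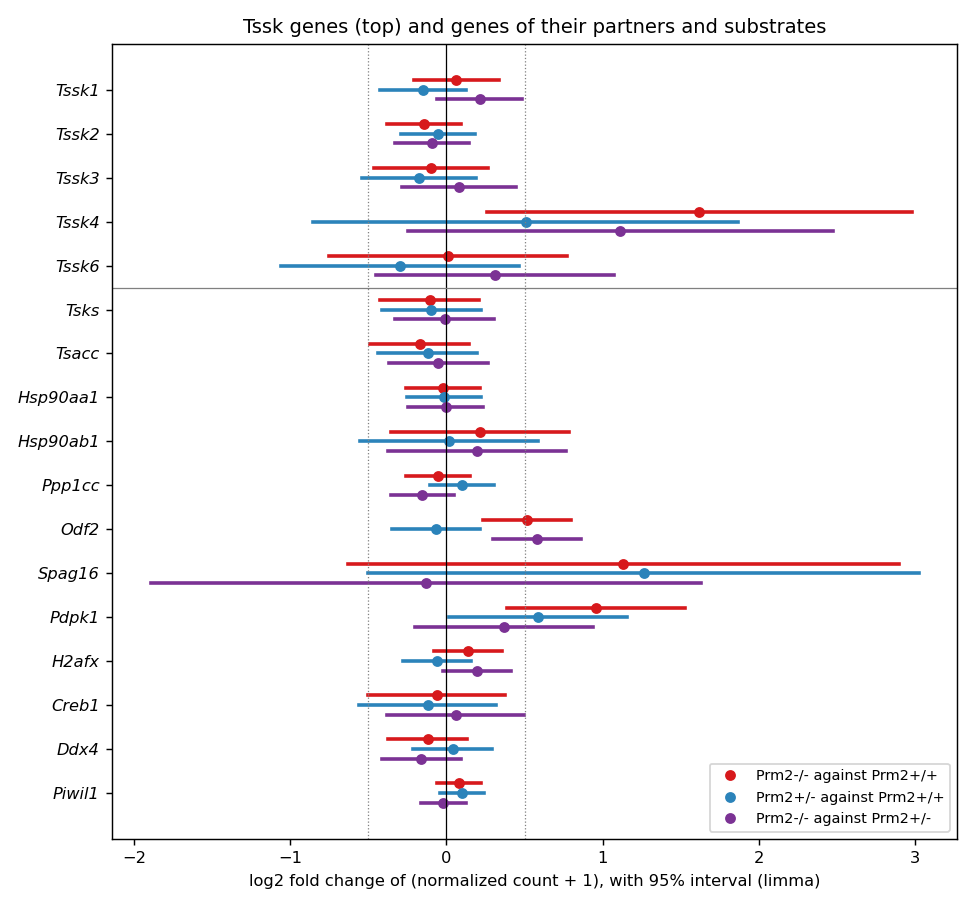
LFC of the 5 Tssk genes (above the line) and the 12 tested genes of the partner list in the 3 comparisons of genotypes, as points with 95% intervals from limma. Dotted lines mark an LFC of 0.5 in either direction, the intervals of Tssk1, Tssk2 and Tssk3 include 0 in all comparisons, and those of Tssk4, Odf2 and Pdpk1 lie above 0 in Prm2−/− against Prm2+/+ without passing the adjusted test.

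Other kinases of male germ cells and of the same kinase group were compared with the family. Of 11 kinases known in spermatogenesis, 0 were called in Prm2−/− against Prm2+/+ in limma, 3 had an unadjusted p under 0.05 (7.33% of all tested genes), and the median LFC was 0.17, beside 0.02 over all tested genes. Without replicate 3 of Prm2+/+ this median was -0.02. Csnk2a2, a casein kinase 2 subunit needed for normal sperm heads, had 52.3, 84.7 and 250 normalized counts in Prm2+/+ and 308, 333 and 394 in Prm2−/− (LFC 1.72, adjusted p = 0.574 in limma, and 2.35 without replicate 3 of Prm2+/+). For Cdk16, a kinase of spermatid maturation, the LFC came to 1.08 (adjusted p = 0.696 in limma), at a low mean of 10.3 normalized counts in Prm2+/+ and 21.7 in Prm2−/−. Hipk4, a kinase of spermatid head shaping, had 22.8, 269 and 23.2 in Prm2+/+ and 7.24, 4.06 and 1.06 in Prm2−/− (LFC -3.61, adjusted p = 0.457 in limma), and the LFC was -2.44 without replicate 2 of Prm2+/+, the library at 269. Stk33, a kinase of the forming flagellum, had 1733, 1621 and 2122 in Prm2+/+ and 1487, 1499 and 1514 in Prm2−/− (LFC -0.27, adjusted p = 0.625 in limma, and -0.16 without replicate 3 of Prm2+/+).

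A further list held 16 AMPK family and related kinases and Stk11, which activates many of them. Of these, 16 genes were tested and 0 were called in Prm2−/− against Prm2+/+ in limma. An unadjusted limma p under 0.05 was found for 0, against 7.33% of all tested genes. The median LFC was 0.11, beside 0.02 over all tested genes. The largest LFCs were those of Brsk2 (1.36) and Prkaa2 (0.45), and the smallest those of Sik3 (-0.28) and Mark2 (-0.25), with adjusted p-values from 0.716 to 0.809 in limma. The first 2 were low, with a mean of the 9 libraries of 45.7 normalized counts for Brsk2 and 9.32 for Prkaa2. Without replicate 3 of Prm2+/+ the LFC was 2.11 for Brsk2 and -0.15 for both Sik3 and Mark2.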

How the data were processed

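Total RNA of whole testis was sequenced as 3′ libraries, and according to the labels and the paper the authors trimmed reads with Trim Galore 0.4.5, mapped them to GRCm38 with HISAT2 2.1, assembled and quantified them with StringTie 1.3.3 and used DESeq2. The unit is a signal: the authors deposited counts per gene after division by a size factor, 1 for each library, as the steps between the values show. In each library 100% of the values were whole multiples of 1 step (tolerance 0.01 counts), from which the counts were recovered. For replicate 1 of Prm2+/− the step lies near 1, which is a weaker sign. The authors removed pseudogenes, and 218 entries had no gene type. Columns without a sample numbered 0.

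The main test was limma 3.58.1 (R 4.3.3; lmFit, eBayes with trend) on log2 of the normalized count plus 1, with genotype as the only term, all 9 libraries and 14893 genes kept by filterByExpr. LFCs of low genes are understated on this scale. p-values were adjusted over all tested genes. Alternatives were pseudocounts of 0.5 and 5, other filters, TMM factors, scaling to the library total, only the 6 libraries compared, a replicate block, edgeR 4.0.16, DESeq2 1.42.0 and leaving out each library. The code was tested on simulated data. Python 3.11.15, numpy 2.4.6, pandas 2.3.3, Biopython 1.88 and matplotlib 3.10.9 were used, with GENCODE M21 for positions and RefSeq (GRCm38.p6) for promoters, in which all 5 members matched.

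The family members and gene lists were chosen with earlier results of these data known. The genes named are the members, Prm2, all partner genes, the 2 largest and 2 smallest LFCs of the other kinase lists, and the gene most like each member across libraries. Neighbouring genes, and markers named singly, were chosen after their values were seen.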

Additional observations from a re-analysis of the deposited data

How the results depend on the processing

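No Tssk gene (0 of 5) was called in any comparison under any of the 19 alternatives tried for each. Under the alternatives, fold changes were compared for members in all comparisons and for partners in Prm2−/− against Prm2+/+ only. Of these, 494 kept their direction and side of the threshold, 11 changed direction and 3 passed the threshold. The 3 were Odf2 in both DESeq2 fits and Pdpk1 without replicate 2 of Prm2+/+. All 11 came from leaving out 1 library, and none of these LFCs had been called. With each library left out in turn, the LFC in Prm2−/− against Prm2+/+ ranged from -0.0394 to 0.200 for Tssk1, from -0.247 to 0.0751 for Tssk3, from -0.220 to 0.389 for Tssk6, from -0.205 to 0.0512 for Tsks, from -0.0861 to 0.0903 for Hsp90aa1, from -0.0211 to 0.442 for Hsp90ab1 and from -0.117 to 0.0210 for Ppp1cc. In Prm2+/− against Prm2+/+ it ranged from -0.124 to 0.0620 for Tssk2. In checks chosen after seeing the data, which also covered the other kinases and the medians of the lists, r without replicate 3 of Prm2+/+ was -0.39 between Tssk1 and Tssk2 and -0.39 between Tssk2 and Tssk3. The cause was not tested. Counts of all genes called were higher in DESeq2: 101 higher and 30 lower in Prm2−/− against Prm2+/+, where limma called 23 and 4.

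Libraries of the same number did not deviate together over all tested genes (9 correlations of -0.0365 to 0.0423 between deviations from the genotype means). The 18 pairs of different number had -0.0376 to 0.0456. This check cannot show whether libraries of 1 number share handling that touches few genes. With a replicate block the LFC of Tssk4 in Prm2−/− against Prm2+/+ was 1.62 (adjusted p = 0.534 in limma), 0 members were called, and the genes called fell to 14 higher and 1 lower. Tssk4 was not tested where at least 10 counts were required in every library, or in Prm2+/− against Prm2+/+ with only those 6 libraries. Depth limits Tssk4, and the spread between libraries limits Tssk6.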

Other observations

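The transcripts most like each Tssk gene across the 9 libraries were looked up among the 5889 or 5890 tested genes with a mean of at least 100, as a description without a test. For Tssk2 it was Tsacc, with a Pearson's r of 0.96 on the log2 scale (Spearman's rho 0.883), and r was 0.83 over the 8 libraries without replicate 3 of Prm2+/+. Tsacc was also on the list of partners. For Tssk1 it was Rrp1 (r = 0.97), for Tssk3 Coasy (0.95), for Tssk4 Satl1 (0.93) and for Tssk6 Hmgb2 (0.91). The libraries share genotype, depth and sample composition, and the highest of so many values is high by selection. The mean of these genes was 1669.7 normalized counts for Tsacc, 912 for Rrp1, 124 for Coasy, 235 for Satl1 and 378 for Hmgb2.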
